A study of Mus musculus with 6 samples.

Results

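The iron uptake, storage and export genes described here are 10 genes chosen by symbol for their known role. Earlier results of these data were known when they were chosen. They are the transferrin receptor gene Tfrc, the carriers Trf and Ltf, and the metal transporters Slc11a1 and Slc11a2. The others are the ferritin subunits Fth1 and Ftl1, the exporter Slc40a1 and the RNA-binding regulators Aco1 and Ireb2. Each of the 10 had a row in the table of 17794 genes, and all 10 were among the 13838 genes with enough reads to test. RNA was sequenced from whole mouse corneas with experimental dry eye, induced in every sample with benzalkonium chloride, a preservative detergent that injures the ocular surface. The animals then had 10 days of vehicle (3 libraries) or of luteolin, a plant flavone (3 libraries). The labels used here give no strain, age, sex, dose or route, do not say whether a library is 1 animal or a pool, and describe no undamaged cornea. The comparison asked how these transcripts differed between luteolin-treated and vehicle-treated damaged tissue.

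Iron travels in body fluids bound to transferrin, enters cells when the transferrin receptor carries that protein into endosomes, and leaves the endosome through Slc11a2, the divalent metal transporter DMT1. Surplus iron is held inside ferritin, a hollow shell of heavy chains, which oxidise iron, and light chains, which favour its mineralisation, and iron leaves the cell through ferroportin, the product of Slc40a1. Lactoferrin, made by Ltf, binds iron in tears and in neutrophil granules, and NRAMP1, made by Slc11a1, moves metal ions out of the phagosomes of macrophages and neutrophils. The cytosolic aconitase Aco1 and its relative Ireb2 act as iron regulatory proteins: when iron is scarce they bind hairpins called iron-responsive elements, blocking translation where the hairpin lies in the 5′ UTR and protecting the transcript from decay where it lies in the 3′ UTR. Transcript level is therefore only 1 layer of control in this system, and protein was not measured here.

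The hairpins are shown because the place of a match, 5′ UTR or 3′ UTR, differed between the members that held 1. They were searched as an unpaired C, a stem arm of 5 bases, the loop CAGTGN and a second arm of 5 bases, on the sense strand of the protein-coding transcripts of GENCODE M21, requiring 5 base pairs (G with T allowed) between the arms. Of 10 members 4 held a match, against 294 of 21877 protein-coding genes (1.34%), whose transcripts differ in length. Matches lay in the 5′ UTR of 3 members (0.142% of all genes) and in the 3′ UTR of 1 (0.59% of all genes). Capitals mark the unpaired C and the loop, and 5 flanking bases are given on each side, 5′ to 3′ in DNA letters, with coordinates of GRCm38, a later build than the mm9 named for the files.
Fth1, 5′ UTR, chr19:9982733-9982759, plus strand: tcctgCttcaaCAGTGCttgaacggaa
Ftl1, 5′ UTR, chr7:45459780-45459806, minus strand: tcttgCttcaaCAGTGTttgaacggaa
Slc40a1, 5′ UTR, chr1:45925466-45925492, minus strand: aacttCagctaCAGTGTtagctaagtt
Tfrc, 3′ UTR, chr16:32631220-32631246, plus strand: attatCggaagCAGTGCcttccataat
Tfrc, 3′ UTR, chr16:32631599-32631625, plus strand: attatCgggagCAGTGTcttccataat
Tfrc, 3′ UTR, chr16:32631664-32631690, plus strand: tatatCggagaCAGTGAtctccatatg
Tfrc, 3′ UTR, chr16:32631711-32631737, plus strand: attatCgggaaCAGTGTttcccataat
The hairpins of Fth1 and Ftl1 were identical at 25 of 27 bases, while that of Slc40a1 shared 13 of 27 with each of them. The 4 Tfrc hairpins lay within 518 bases. No match says only that these letters are not in the transcripts searched. It does not show that the regulators leave a member alone.

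Library totals ran from 16084855 to 16469699 estimated counts. The defining genes of corneal epithelium were present in every library: the 12 genes of that list summed to between 51621 and 59111 CPM (counts scaled to a common library size with TMM factors) with vehicle and between 78426 and 81223 with luteolin. Of these genes 11 were higher, among them Krt12 and Krt5, which hold much of the sum, and Krt14, a basal cell keratin, was 12.5-fold lower (5209 ± 1753 to 418 ± 81.2 CPM, SD, n = 3, edgeR adjusted p = 0.000114). Vehicle 2 stood apart in stromal content, with a summed keratocyte list of 8592 CPM against 4703 and 3250 in the other vehicle libraries. Skeletal muscle genes, which come from outside the cornea, summed to 132, 219 and 15.01 CPM in vehicle 1, 2 and 3 and to 18.3, 17.5 and 94.5 CPM in luteolin 1, 2 and 3. No 2 libraries of a group agreed within sampling noise. Nothing in the labels shows separate animals, so p-values reflect only how far these libraries spread, and that spread may be technical.

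After luteolin, transcripts of the transferrin receptor, both carriers, NRAMP1, both ferritin chains, ferroportin and the regulator Aco1 were lower than after vehicle, and those of Slc11a2 were higher. With edgeR's quasi-likelihood test and Benjamini-Hochberg adjustment over all genes, 8 of the 10 members were lower, 1 was higher and Ireb2 did not pass at 0.05. The comparison as a whole moved many genes: 58.9% of those tested passed, 30.4% lower and 28.5% higher. A decrease of over 1 on the log2 scale was found in 6 members, against 15.1% of all tested genes, and an increase of that size in 0 members, against 4.61%. The groups' libraries did not overlap for 9 members, where 67.4% of all tested genes did not overlap. The median log2 fold change, luteolin minus vehicle, was -1.72 over the members and -0.02 over all tested genes. In bulk tissue, fewer cells of a type and less RNA per cell cannot be told apart.

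**Figure D1:**
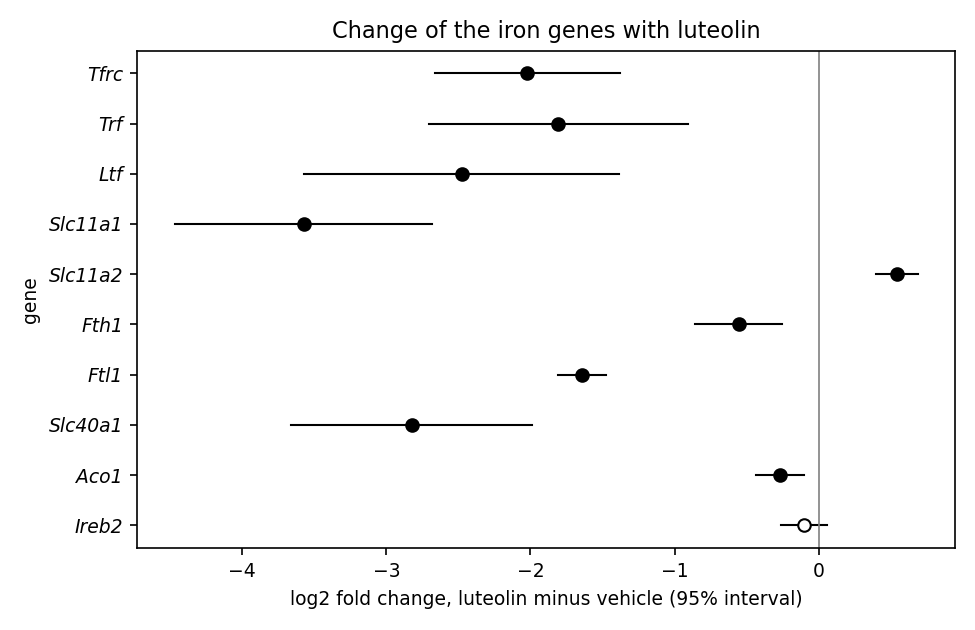
Log2 fold change of each of the 10 iron genes, luteolin minus vehicle, on the x axis, with its 95% interval from edgeR's quasi-likelihood fit over 3 libraries per group. Filled points passed at an adjusted p of 0.05; Slc11a2 (0.54) is the 1 gene to the right of 0 and Ireb2 (-0.10), drawn open, is the 1 whose interval includes 0.

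Tfrc (gene ID 22042), the receptor through which most cells take up transferrin-bound iron, stood at 101 (vehicle 1), 56.3 (vehicle 2) and 125 CPM (vehicle 3) and at 21.98, 25.7 and 21.9 CPM in luteolin 1, 2 and 3. Every luteolin library was below every vehicle library, and the vehicle libraries were spread far more widely, with vehicle 2 the lowest. The means were 94.3 ± 34.9 and 23.2 ± 2.199 CPM (SD, n = 3), 4.06-fold lower with luteolin (log2 fold change -2.02, SE 0.274, edgeR adjusted p = 0.000771). Leaving out any 1 library gave between 3.46-fold and 4.88-fold.

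Trf (gene ID 22041), which encodes transferrin, the iron carrier of plasma and of aqueous humour and tears, stood at 26.4, 43.0 and 18.8 CPM in the vehicle libraries and at 11.2, 9.29 and 4.70 CPM in the luteolin libraries. The groups did not overlap, and the spread was wide in both, with coefficients of variation of 42.1% and 39.9%. Trf was 3.49-fold lower (log2 fold change -1.81, SE 0.383, edgeR adjusted p = 0.00554). Its highest library in the vehicle group, vehicle 2, and its lowest in the luteolin group, luteolin 3, were also the highest and the lowest of all 6 for the summed keratocyte list, which was 3532, 4182 and 1826 CPM in luteolin 1, 2 and 3. The keratocyte list overlapped between the groups, which Trf did not, and its part in the change of Trf was not tested.

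Ltf (gene ID 17002), the lactoferrin gene, had the widest spread of the members: 33.5, 25.6 and 73.5 CPM in vehicle 1, 2 and 3 and 4.84, 7.28 and 11.6 CPM in luteolin 1, 2 and 3. Vehicle 3 was well above the other vehicle libraries, and the highest luteolin library was still below the lowest vehicle library. The means were 44.2 ± 25.7 and 7.92 ± 3.45 CPM (SD, n = 3), 5.57-fold lower (log2 fold change -2.48, SE 0.466, edgeR adjusted p = 0.00325), and 3.79-fold lower without vehicle 3.

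Of the related metal transporters, Slc11a1 fell and Slc11a2 rose. Slc11a1 (gene ID 18173), the phagosomal transporter NRAMP1, had 88, 187 and 135 counts in the vehicle libraries and 10, 14 and 7 in the luteolin libraries, or 8.04 ± 2.90 and 0.668 ± 0.231 CPM (SD, n = 3). This was the largest decrease among the members, 11.9-fold (log2 fold change -3.57, SE 0.382, edgeR adjusted p = 0.000299), and it rests on few luteolin reads. Slc11a2 (gene ID 18174), the endosomal transporter DMT1, stood at 54.9, 57.9 and 61.8 CPM with vehicle and at 83.3, 84.8 and 86.2 CPM with luteolin. It was the least variable gene of the 10 within the luteolin group (coefficient of variation 1.69%) and the 1 member that was higher, 1.46-fold (log2 fold change 0.54, SE 0.0620, edgeR adjusted p = 0.000392). Per unit of transcript length, Slc11a1 was at 0.163, 0.332 and 0.238 of the level of Slc11a2 with vehicle and at 0.0123, 0.0177 and 0.00797 with luteolin (ratios of TPM, the deposited per-length unit).

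Both ferritin chains fell. Fth1 (gene ID 14319), the heavy chain that oxidises iron, stood at 1238, 1721 and 1525 CPM in the vehicle libraries and at 909, 1088 and 1056 CPM in the luteolin libraries. The groups were separate, by less than the spread between vehicle libraries. Fth1 was 1.47-fold lower (log2 fold change -0.55, SE 0.129, edgeR adjusted p = 0.00840), and 1.36-fold lower without vehicle 2.

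Ftl1 (gene ID 14325), the light chain, was tight in both groups, at 639, 692 and 614 CPM with vehicle and 197, 216 and 209 CPM with luteolin. It was 3.13-fold lower (log2 fold change -1.64, SE 0.0716, edgeR adjusted p = 2.79e-05). Its coefficients of variation were 6.21% and 4.63%, so the decrease was many times the spread between libraries.

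In each library the heavy chain was the more abundant per unit of length. The ratio of Fth1 to Ftl1, from TPM, was 2.03, 2.60 and 2.60 in the vehicle libraries and 4.81, 5.25 and 5.28 in the luteolin libraries. All luteolin ratios were above all vehicle ratios, a difference of 1.10 on the log2 scale between group means, which was not tested. Together both chains made up 0.442%, 0.562% and 0.485% of all TPM with vehicle and 0.259%, 0.300% and 0.287% with luteolin. Both genes have many processed pseudogenes in the mouse genome. Their counts, like those of all 10 members, were whole in all 6 libraries to within 0.001, so no fractional division of reads shows in these rows, but reads placed wholly on a copy would not show.

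**Figure D2:**
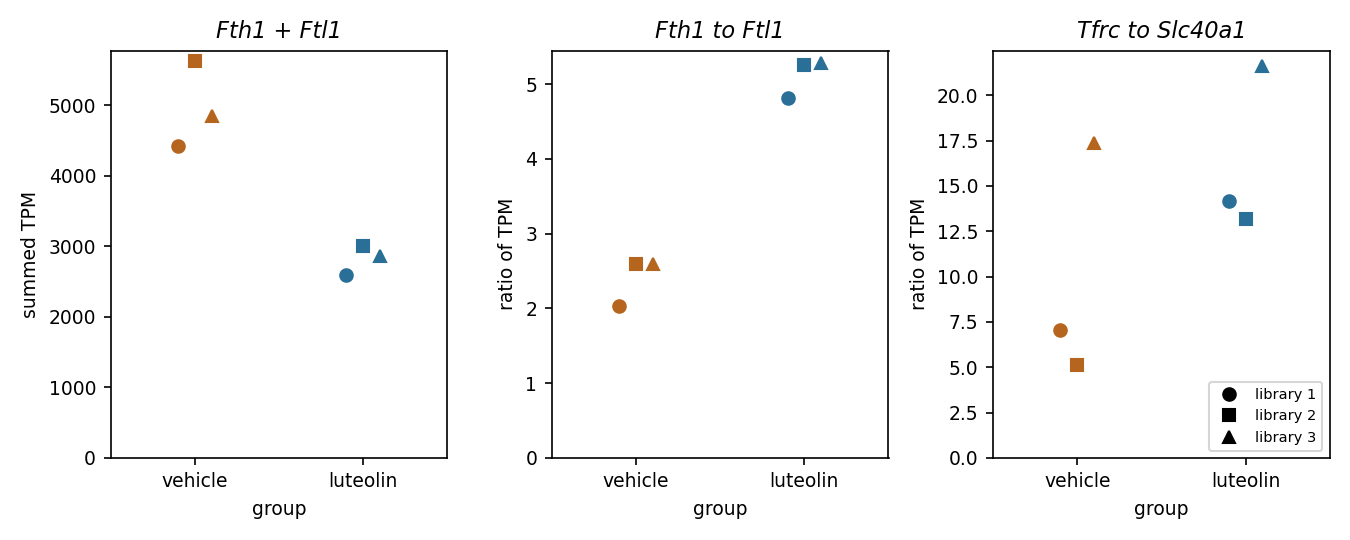
Summed TPM of Fth1 and Ftl1 (left), the ratio of Fth1 to Ftl1 (middle) and the ratio of Tfrc to Slc40a1 (right) in each library, by group, with a symbol per library number. The ferritin ratio lies between 2.03 and 2.60 with vehicle and between 4.81 and 5.28 with luteolin, while the groups overlap for Tfrc to Slc40a1.

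Slc40a1 (gene ID 53945), which encodes ferroportin, the cellular iron exporter, had 160, 123 and 78 counts in the vehicle libraries and 16, 20 and 10 in the luteolin libraries. In CPM these were 9.34, 7.20 and 4.65 against 1.03, 1.30 and 0.643, so every luteolin library was below vehicle 3, the lowest vehicle library. Slc40a1 was 7.08-fold lower (log2 fold change -2.82, SE 0.357, edgeR adjusted p = 0.000574). The TPM ratio of the import receptor to the exporter, Tfrc to Slc40a1, stood at 7.03, 5.11 and 17.4 with vehicle, then at 14.2, 13.2 and 21.6 with luteolin. These ratios overlapped between the groups, and vehicle 3, the highest of its group, had the highest Tfrc and the lowest Slc40a1 of the vehicle libraries.

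The iron regulatory proteins moved least. Aco1 (gene ID 11428), cytosolic aconitase, stood at 74.3, 75.5 and 79.5 CPM with vehicle and at 67.6, 58.2 and 64.9 CPM with luteolin. It was 1.202-fold lower (log2 fold change -0.27, SE 0.0713, edgeR adjusted p = 0.0150). Ireb2 (gene ID 64602) stood at 103, 90.4 and 96.2 CPM with vehicle and at 91.6, 92.5 and 86.0 CPM with luteolin, with overlapping groups. Its log2 fold change was -0.10 with a 95% interval from -0.26 to 0.06 (edgeR adjusted p = 0.227). The TPM ratio of Aco1 to Ireb2 averaged 1.34 ± 0.110 with vehicle and 1.18 ± 0.117 with luteolin (SD, n = 3).

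On the per-length scale the members ran from rare to very abundant transcripts. With vehicle the order of mean TPM was Fth1 (3506 ± 549), Ftl1 (1457 ± 107), Aco1 (34.3 ± 0.749), Tfrc (29.8 ± 10.8), Ltf (26.5 ± 14.9), Ireb2 (25.7 ± 1.93), Slc11a2 (23.6 ± 0.714), Trf (21.3 ± 9.10), Slc11a1 (5.79 ± 2.10) and Slc40a1 (3.46 ± 1.2005), each as SD with n = 3. Neighbours from Aco1 to Trf did not differ beyond their spread, nor did Slc11a1 and Slc40a1. Fth1 ranked 42 and Ftl1 109 of all genes by mean TPM.

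With luteolin the order became Fth1 (2358 ± 194), Ftl1 (460 ± 17.8), Slc11a2 (35.1 ± 0.0757), Aco1 (28.4 ± 2.39), Ireb2 (24.0 ± 1.07), Tfrc (7.39 ± 0.674), Trf (6.11 ± 2.48), Ltf (4.76 ± 2.04), Slc40a1 (0.480 ± 0.151) and Slc11a1 (0.443 ± 0.170), each as TPM with SD and n = 3. Slc11a2, below both regulators with vehicle, was above them with luteolin. Tfrc and Ltf, whose vehicle means lay between those of Aco1 and Ireb2, were below both with luteolin. The mean of Trf was below both in either group, though in vehicle 2 Trf (31.25 TPM) was above Ireb2 (24.1 TPM). The libraries of Tfrc and Trf overlapped, as did those of Trf and Ltf and those of Slc40a1 and Slc11a1, while the other neighbours in this order did not overlap. By rank, Fth1 was at 69, Ftl1 at 258, and Slc40a1 at 13053 of 17794.

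**Figure D3:**
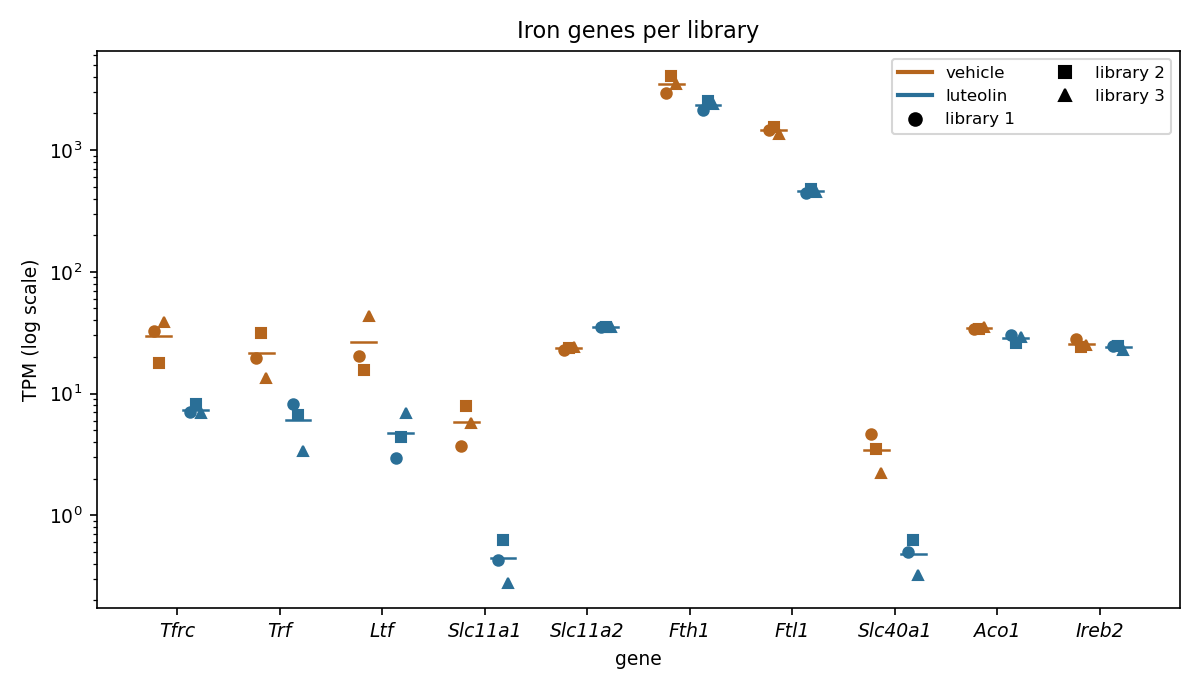
Level of each iron gene in each library as TPM on a log scale, vehicle beside luteolin, with a symbol per library number and a line at the group mean. Fth1 and Ftl1 lie far above the rest, Slc11a1 and Slc40a1 are the lowest, and Slc11a2 is the 1 gene whose luteolin libraries are all above its vehicle libraries.

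Several members are known from cells other than those of the cornea itself, and markers of those cells differed between the same libraries. The 13 macrophage and dendritic cell genes in the table summed to between 416 and 830 CPM with vehicle and between 64.9 and 100 CPM with luteolin, 11 of 13 were lower, and none was at 0 in all luteolin libraries. The 9 neutrophil genes in the table summed to between 33.8 and 50.7 CPM with vehicle and between 1.23 and 2.38 CPM with luteolin, and 6 of them, S100a8, Ly6g, Ngp, Camp, Retnlg and Mmp8, were at 0 in every luteolin library. Of those 6, Ly6g, Ngp, Camp and Retnlg were also near 0 with vehicle, at 10 counts or fewer in each library, and were not tested. The 5 neutrophil genes that were tested were all lower. Between the groups, Slc11a1, Slc40a1 and Ltf differed in the same direction as these lists, and the lists' part in their change was not tested.

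Ltf and the neutrophil list shared their highest library in each group, vehicle 3 and luteolin 3, and Slc11a1 and the macrophage list shared vehicle 2 and luteolin 2. Slc40a1 was highest in vehicle 1 (9.34 CPM), where neither list was highest, and in luteolin 2 (1.30 CPM), where the macrophage list was. Of the listed granule genes of neutrophils, Camp and Ngp were at 0.292 CPM or below in each vehicle library and Mmp8 was between 0.761 and 2.28 CPM. Lcn2, also a granule gene but made by epithelia too, was between 17.8 and 101 CPM with vehicle and, like Ltf, was lower with luteolin. Vessel genes summed to between 160 and 273 CPM with vehicle and between 40.3 and 47.4 CPM with luteolin, with 10 of 11 lower. Red blood cell genes, 6 in the table, summed to at most 1.70 CPM in any library. Ocular gland genes, a possible outside source of Ltf, summed to at most 0.585 CPM in any library and overlapped between the groups, though only 2 of 5 listed had a row. Conjunctival genes summed to between 4194 and 4493 CPM with vehicle and between 1799 and 2781 CPM with luteolin, without overlap, and 3 of 5, the keratin genes Krt4, Krt13 and Krt19, were lower. This list moved in the same direction as Ltf and the other members that fell, and its part in their change was not tested. Corneal endothelium genes summed to between 921 and 1070 CPM with vehicle and between 771 and 858 CPM with luteolin, with 1 of 6 lower. Of the Schwann cell and myelin genes, 5 of 8 were lower and 1, Mbp, was higher (2.89-fold). Their sum was higher with luteolin, between 157 and 190 CPM with vehicle and between 261 and 263 CPM with luteolin. Mbp held much of that sum, at 71.1 CPM on average with vehicle and 205 CPM with luteolin.

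**Figure D4:**
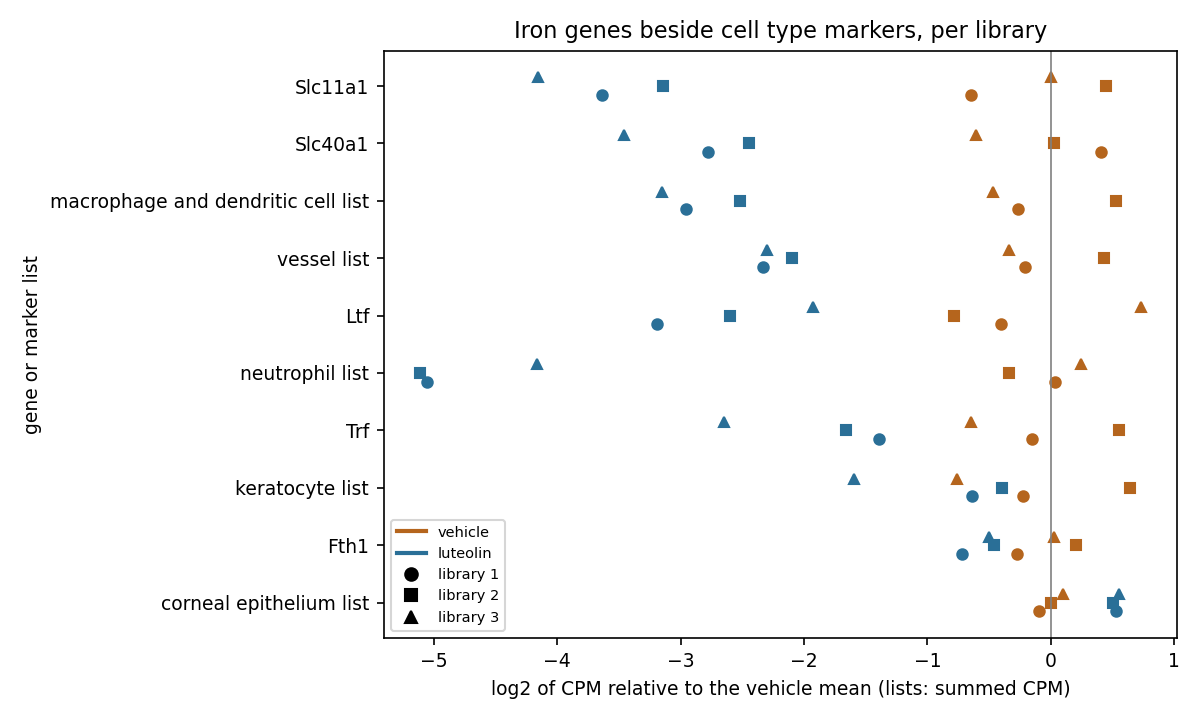
Log2 of CPM relative to the vehicle mean for 5 iron genes and for the summed CPM of 5 marker lists, per library, with a symbol per library number. With luteolin all 5 iron genes and the macrophage, vessel, neutrophil and keratocyte lists lie to the left of 0, and the corneal epithelium list lies to the right.

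Further iron and haem genes were listed by role under 61 symbols, some of them older names of genes also listed. Of these symbols 55 had a row and 50 were tested: 19 were lower, 11 were higher and 20 did not pass. This share of 60% is close to the 58.9% of all tested genes, and the median log2 fold change was -0.16. Genes of uptake and reduction were mostly lower, 9 of 12 tested, and 1 was higher. Of the genes of haem synthesis 5 of 9 were higher and 1 was lower. Of the genes of mitochondrial iron and iron-sulphur clusters 7 of 10 did not pass.

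Among the uptake genes, the metal importers of the ZIP family went opposite ways. Slc39a8, which imports zinc, manganese and iron, rose from 56.7 ± 15.1 to 233 ± 17.5 CPM (SD, n = 3), 4.12-fold (log2 fold change 2.04, SE 0.176, edgeR adjusted p = 0.000138). Slc39a14, which imports iron not bound to transferrin, fell from 15.96 ± 2.91 to 3.88 ± 0.9996 CPM (SD, n = 3), 4.11-fold (edgeR adjusted p = 0.000315). The groups did not overlap for either gene. The ferrireductase Steap3, which reduces iron in the endosome for export by DMT1, was 2.26-fold lower, at 79.3, 102 and 70.5 CPM with vehicle and 37.1, 38.3 and 36.3 CPM with luteolin. Its relative Steap2 was 2.60-fold lower.

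Some other uptake genes, chosen after their values were seen, depended more on vehicle 2. Lcn2, lipocalin 2, which binds bacterial iron carriers, stood at 17.99, 101 and 17.8 CPM with vehicle and 0.903, 0.520 and 2.06 CPM with luteolin, 38.9-fold lower (edgeR adjusted p = 0.00274). The decrease was 15.3-fold without vehicle 2 and 63.0-fold without luteolin 3. Steap4, a metalloreductase, was at 96.9, 288 and 74.6 CPM with vehicle and 60.1, 56.2 and 30.0 CPM with luteolin, 3.14-fold lower or 1.76-fold without vehicle 2, a call lost without any 1 luteolin library (edgeR adjusted p 0.0572 to 0.0889). Cd163, the macrophage receptor for haptoglobin bound to haemoglobin, had a log2 fold change of -1.63 (edgeR adjusted p = 0.0399), and leaving out any 1 library other than vehicle 3 ended its call (-1.01 without vehicle 2). Scara5, a ferritin receptor, was 2.96-fold lower, or 2.39-fold without vehicle 2. Steap1, a relative of Steap4, did not depend on that library: it was 5.65-fold lower, or 6.05-fold without vehicle 2.

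Beside the ferritin chains, Ncoa4, the receptor that delivers ferritin to autophagy, went the other way. It stood at 239, 323 and 285 CPM with vehicle and at 640, 572 and 573 CPM with luteolin, 2.11-fold higher (log2 fold change 1.08, SE 0.114, edgeR adjusted p = 0.000295). The iron chaperone gene Pcbp2 had a log2 fold change of -0.17 (edgeR adjusted p = 0.0430), a call lost under 7 of 16 alternatives, its counts had decimals in all 6 libraries, and its relative Pcbp1 (-0.10) did not pass. Ftl2 and Ftmt had no row under these symbols in the table used.

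Among oxidases of the kind that work with ferroportin, Cp, ceruloplasmin, stood at 26.1, 64.9 and 16.2 CPM with vehicle and 10.6, 12.4 and 14.3 CPM with luteolin, 2.87-fold lower (edgeR adjusted p = 0.0274). Without vehicle 2 it was 1.70-fold lower, and its call was lost without any 1 luteolin library (edgeR adjusted p 0.0582 to 0.0849). Hephl1, a related multicopper oxidase, rose 1.83-fold, from 7.67 ± 0.0689 to 14.0 ± 1.34 CPM (SD, n = 3, edgeR adjusted p = 0.000812). Heph, hephaestin, had a log2 fold change of -0.31 and did not pass.

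Among regulators, Fbxl5, the iron-sensing ubiquitin ligase subunit that degrades the Ireb2 protein, was 1.22-fold lower (edgeR adjusted p = 0.0147). Hfe, which binds the transferrin receptor, had a log2 fold change of -0.88 (edgeR adjusted p = 0.0480) with overlapping groups and counts with decimals in 4 libraries, and its call was lost without any 1 of 4 libraries (edgeR adjusted p = 0.107 and a value of -0.47 without vehicle 2, and 0.0593, 0.133 and 0.130 without vehicle 1, luteolin 1 and luteolin 3). The other 3 tested regulators, Bmp6, Neo1 and Erfe, did not pass.

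Haem genes split by function. Hmox1, the inducible enzyme that opens the haem ring and frees its iron, stood at 15.4, 14.9 and 14.2 CPM with vehicle and at 1.81, 1.82 and 2.51 CPM with luteolin, 7.23-fold lower (log2 fold change -2.85, SE 0.169, edgeR adjusted p = 4.8e-05). The constitutive Hmox2 had a log2 fold change of -0.16 and did not pass. The haem exporter Flvcr1 was 1.52-fold lower and the biliverdin reductase gene Blvra 1.66-fold lower. Hp, haptoglobin, had 123 counts over the vehicle libraries and 1 over the luteolin libraries, and that 1 count came from luteolin 2. Scaled for library size this was a 112-fold ratio, for which counting error alone allows 19.7 to 4460 (95%, exact). With luteolin 2 left out, Hp was at least 25.0-fold lower, taking 3 counts over both remaining libraries as the floor.

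In haem synthesis, Alad and Uros, which act on early intermediates, were 1.43-fold and 1.48-fold higher, and Fech, which inserts the iron, was 1.31-fold higher, at 85.0, 84.1 and 82.9 CPM with vehicle and 109, 111 and 111 CPM with luteolin (edgeR adjusted p = 0.000520). Alas2, known as the erythroid form of the first enzyme, rose from 2.51 ± 0.539 to 4.72 ± 0.479 CPM (SD, n = 3, edgeR adjusted p = 0.0100), while the general form Alas1 had a log2 fold change of -0.27 and did not pass. The 5′ UTR of Alas2 also held the hairpin motif. Iscu and Nfs1, which build iron-sulphur clusters, had log2 fold changes of 0.22 and 0.19 (edgeR adjusted p = 0.0262 and 0.0343), and these calls were lost in 10 and 13 of 16 alternatives, for Iscu without any 1 library other than vehicle 2 (adjusted p 0.0702 to 0.102) and for Nfs1 without any 1 library (adjusted p 0.0547 to 0.158).

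**Figure D5:**
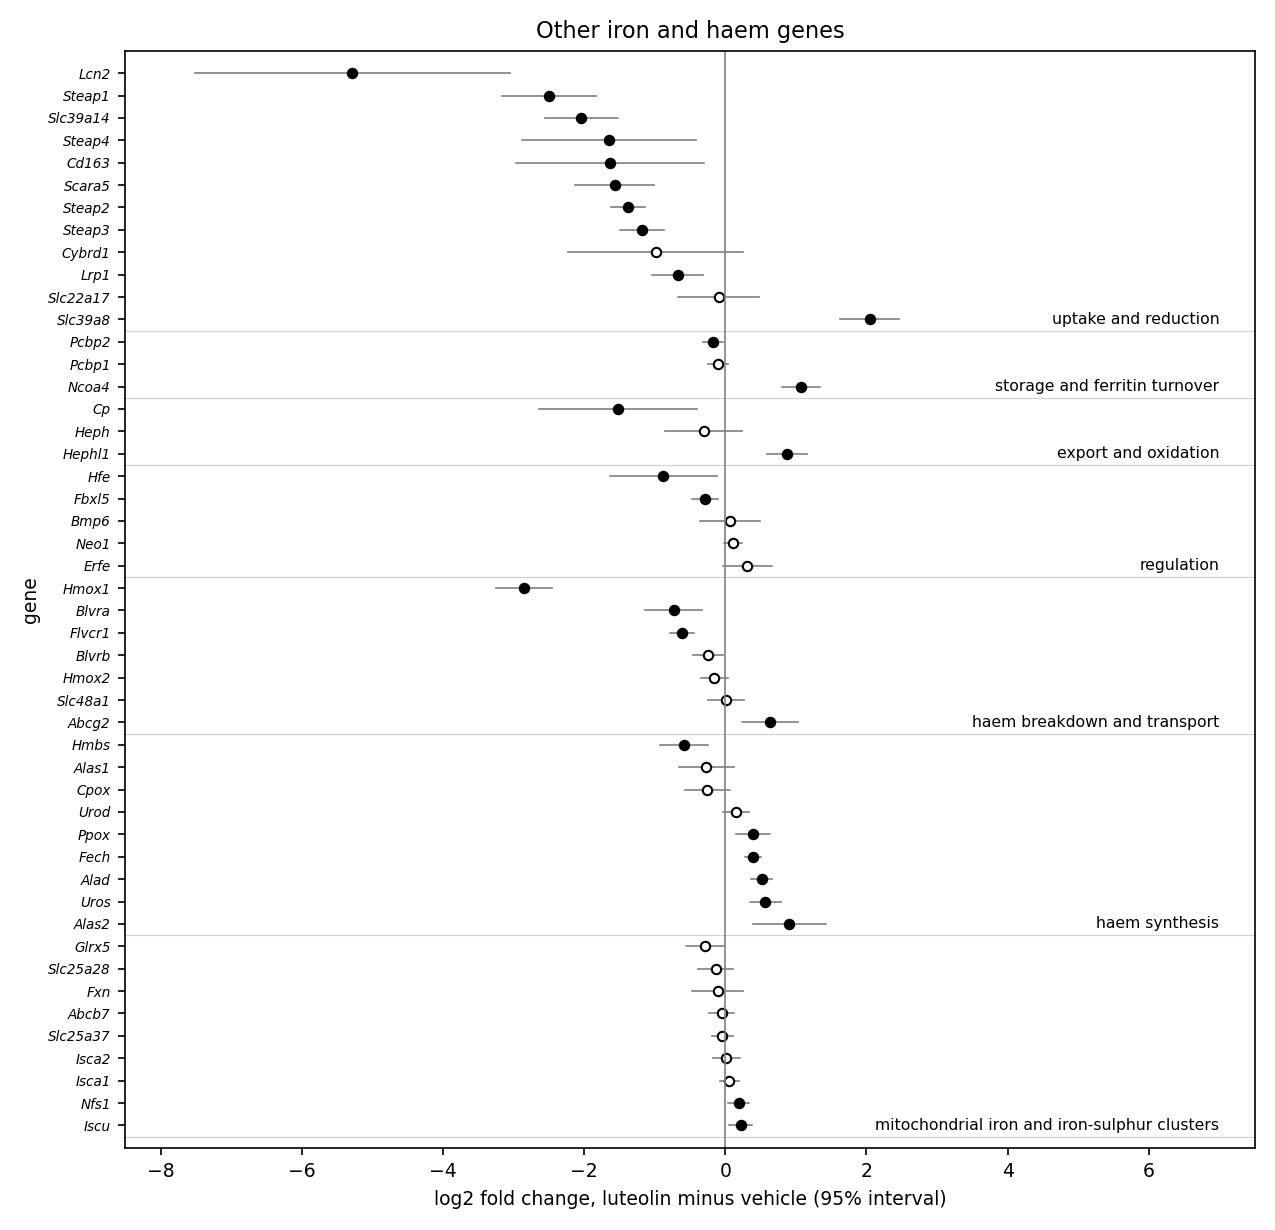
Log2 fold change of further tested iron and haem genes, luteolin minus vehicle, with 95% intervals from edgeR's fit, grouped by role; filled points passed at an adjusted p of 0.05. Hp is left out because it had 1 luteolin count; Slc39a8 (2.04) and Ncoa4 (1.08) are the 2 points past 1 to the right.

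Genes with the profile nearest to that of each member were sought among 10772 other genes of at least 5 CPM. The measure was the root mean square distance between log2 CPM profiles over the 6 libraries after centring each. It includes the difference between the groups, so genes of near-equal log2 fold change lie near, such as Rab11fip5 (-1.67) to Ftl1 (-1.64). A short distance does not show that 2 genes varied together within a group. Nearest to Tfrc were Arl4d (0.187), the amino acid transporter gene Slc7a5 (0.193) and the nucleolar protein gene Npm1 (0.217). Nearest to Slc11a1 were the leukocyte actin-bundling gene Lcp1 (0.182), Pik3ap1 (0.222) and Fxyd5 (0.242), and nearest to Slc40a1 were Adam19, Igsf10 and Cpne2 (0.220 to 0.226). For Trf the nearest were Colec12 (0.0979), Gpc6 (0.122) and Srpx2 (0.138).

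Nearest to Ltf were the cytokine gene Il33 (0.270), Gvin2 (0.346) and Orc1 (0.392). Ftl1 was nearest to Rab11fip5 (0.0344), the basement membrane proteoglycan gene Hspg2 (0.0736) and Irak3 (0.0899), and Fth1 to Sh3bgrl3 (0.0721), H2-T22 and Etfbkmt. Slc11a2 was nearest to Cc2d1a (0.00754), Dvl2 and Sema4b, and Aco1 to Metap1 (0.0292), Ptk2 and Ippk. Distances are smaller for genes that change less, so they cannot be compared between members.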

How the data were processed

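Whole corneas were collected after 10 days of treatment and their RNA was sequenced after TruSeq preparation (labels' protocols). Bowtie2 2.2.5, RSEM 1.2.12 and the build mm9 appear in the submitters' processing notes. What each did, the annotation and whether strand was used: not given in the sources used here. Antisense or overlapping genes may share reads. The authors deposited estimated counts, which, per the file headers, are read counts (10.3% to 10.8% of values not whole). They also deposited FPKM values, TPM values and normalized read counts, a signal divided by 1 factor per library (0.945 to 1.07). Group averages were not used.

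After rounding, the estimated counts went into edgeR 4.0.16 under R 4.3.3 (quasi-likelihood, TMM factors, filterByExpr with a minimum count of 10 and total of 15, no replicate block), with Benjamini-Hochberg adjustment over 13838 genes, 3956 having been removed. CPM uses the TMM factors. An SE is the log2 fold change divided by the square root of F, and intervals are 95% t intervals. Levels of different genes were compared as TPM. Alternatives were DESeq2 1.42.0, other scaling and filters, robust dispersion, a replicate block, limma 3.58.1 on log2 FPKM, and leaving out each library. The code was tested on simulated data. Members and lists were chosen with earlier results of these data known. Named are all members, from each role group of the further genes the 2 with the smallest p (4 where over 3 passed), and for each member that passed the 3 genes with the nearest profile, outside all lists and without model names. Other genes named, among them Lcn2, Steap1, Steap4, Cd163, Scara5, Pcbp1, Heph, Bmp6, Neo1, Erfe, Hmox2 and Alas1, were chosen after their values were seen. Of the genes counted in the lists, 1 is not reported here by name.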

Additional observations from a re-analysis of the deposited data

How the results depend on the processing

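All 9 members that passed kept their direction and call under each of 16 alternatives (6 of them leaving out 1 library), so 1 member was higher in every setting and 8 were lower in all but the 3 settings in which Ireb2 also passed. Ireb2 passed with upper quartile factors (-0.20), library sizes only (-0.22) and limma-trend on log2(FPKM + 0.1) (-0.22). Upper quartile factors and library sizes only shifted the all-gene median log2 fold change from -0.02 to -0.11 and -0.13, and limma-trend on log2 FPKM to -0.12 and -0.14; relative to that median Ireb2 stood at -0.08, -0.09, -0.09 and -0.07. With these settings the lower calls made up, in place of 51.6% of all calls, 61.9%, 63.6%, 65.1% and 65.3%. A pseudocount of 1 reduced the values of the members with the lowest FPKM, Slc11a1 to -1.95 and Slc40a1 to -1.37. Of the further iron and haem genes, 20 of the 30 that passed kept their call in all 16. Leaving out 1 library gave 3192 to 4087 genes higher and 3581 to 4406 lower, 1 member higher and 8 lower, and 8 to 10 further iron and haem genes higher and 13 to 22 lower.

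The libraries share replicate numbers. After the group mean of each gene was subtracted from log2 CPM, correlations of same-numbered libraries were -0.15, 0.03 and 0.01. No vehicle library correlated best with its own number, and of the luteolin libraries only luteolin 2 did. With 3 libraries per group, such values cannot settle whether the numbers pair them. With a replicate block 3790 genes were higher and 4144 lower, 1 member was higher and 8 were lower, and 10 of the further genes were higher and 16 lower.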
